A study of Mus musculus with 8 samples.

Results

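The genes described here are 6 fibroblast growth factors, Fgf1, Fgf2, Fgf7, Fgf9, Fgf10 and Fgf18, and the 4 signalling FGF receptors, Fgfr1, Fgfr2, Fgfr3 and Fgfr4. They were taken by symbol from the 24963 genes of the deposited table, and each of the 10 was found there. Whole uterus was collected on gestation day (GD) 3.5 from C57B6/J mice mated at 8 weeks of age with vasectomized males, so that no embryo was present. The 4 Nr2f2 f/f libraries, labelled WT, are from mice that carry the floxed Nr2f2 allele on both chromosomes and no Cre. The 4 Nr2f2 d/d libraries are from mice that carry the same floxed alleles and a Cre knocked into one Pgr allele (Pgr Cre/+; Nr2f2 flox/flox), which removes Nr2f2 in Pgr-expressing cells and also leaves a single intact Pgr allele. The control group has no Cre, so loss of Nr2f2 and the Pgr Cre allele cannot be told apart. Values are FPKM, which divide the fragment count of a gene by gene length and by library size. The question was which FGF ligands and receptors differed in mRNA level between the 2 genotypes.

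FGFs are secreted proteins that bind receptor tyrosine kinases on neighbouring cells together with heparan sulfate, and the receptors signal through the docking protein FRS2 to the RAS and MAPK cascade. In the uterus, ligands made by the stroma act on receptors of the epithelium and can drive its proliferation. HAND2, a transcription factor of the progesterone-responsive stroma, is known to hold stromal FGF expression down before implantation.

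Nr2f2 itself was lower in every Nr2f2 d/d library, at 24.1 ± 1.80 FPKM in Nr2f2 f/f and 8.93 ± 1.36 FPKM in Nr2f2 d/d (mean ± SD of 4 libraries). Its log2 fold change was -1.39, with an SE of 0.12 (limma, adjusted p = 0.00549). Hand2 was also lower in every Nr2f2 d/d library, at 50.9 ± 4.94 and 31.2 ± 5.36 FPKM, with a log2 fold change of -0.71 (SE 0.13, limma, adjusted p = 0.0388), and its adjusted p was under 0.05 in 2 of the 8 fits that left out a library. Exons of antisense transcripts cover 19.61% of the Hand2 and 7.46% of the Nr2f2 exon bases, where reads of the 2 strands cannot be told apart. Library totals recovered from the steps between low FPKM were 61050000 to 92000000 fragments, and 3 fragments on a gene of 1 kb were worth 0.0326 to 0.0491 FPKM. Replicate 2 of Nr2f2 f/f and replicate 3 of Nr2f2 d/d had the lowest median correlation with their own groups (r = 0.939 and 0.964 across genes, against 0.968 to 0.985 for the other 6). Neither the labels nor the methods say whether tissue was pooled, so p-values measure the spread between these samples.

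Among the 10 genes the receptor Fgfr2 had the highest mean in both genotypes, at 32.1 FPKM in Nr2f2 f/f and 31.0 FPKM in Nr2f2 d/d. In Nr2f2 f/f it was followed by Fgfr1 (6.62 FPKM), Fgf1 (4.40), Fgf9 (3.15), Fgf10 (1.54), Fgfr3 (1.16), Fgf7 (0.845), Fgf18 (0.739), Fgf2 (0.517) and Fgfr4 (0.173). The libraries of neighbours in this order overlapped, except for Fgfr2 against Fgfr1 and Fgf2 against Fgfr4. In Nr2f2 d/d the order of means was Fgfr2, Fgf1 (12.7 FPKM), Fgfr1 (6.89), Fgf18 (2.35), Fgf9 (1.63), Fgf10 (1.503), Fgfr3 (0.888), Fgf2 (0.745), Fgf7 (0.688) and Fgfr4 (0.572). There only Fgfr1 and Fgf18, among neighbours, did not overlap. Fgf1 thus stood above Fgfr1 in mean level in Nr2f2 d/d and below it in Nr2f2 f/f, and Fgf18 stood at place 8 in Nr2f2 f/f and at place 4 in Nr2f2 d/d.

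**Figure D1:**
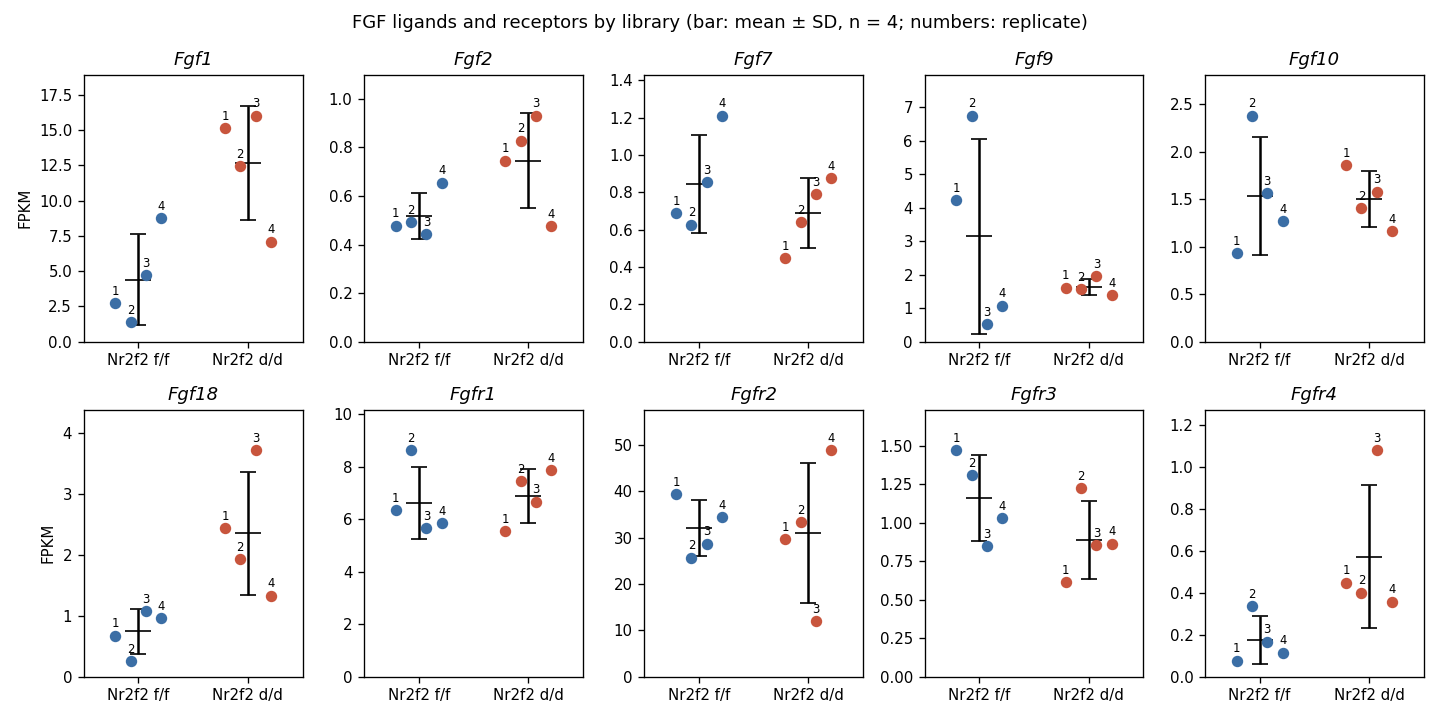
FPKM of the 6 FGF ligands and 4 receptors in each library, 1 panel per gene with its own axis from 0, with blue points for Nr2f2 f/f, red points for Nr2f2 d/d, the replicate number above each point, and a black bar for mean ± SD (n = 4). For Fgf18 and Fgfr4 the 4 Nr2f2 d/d points lie above every Nr2f2 f/f point, for Fgf1 and Fgf2 3 of 4 do, and the Nr2f2 f/f points of Fgf9 run from 0.524 to 6.75 FPKM.

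Fgf1 encodes acidic FGF, a ligand without a classical signal peptide that can activate each of the 4 receptors. Its locus is chr18:38838673-38929472 (mm10, minus strand). Its level was 2.72, 1.396, 4.74 and 8.74 FPKM in the 4 control libraries, in the order of their replicate numbers as throughout, and 15.1, 12.4, 16.02 and 7.10 FPKM in the 4 Nr2f2 d/d libraries. Replicate 4 of Nr2f2 d/d lay below replicate 4 of Nr2f2 f/f, and the other 3 Nr2f2 d/d libraries lay above the whole control group. The means were 4.40 ± 3.21 FPKM and 12.7 ± 4.02 FPKM, a ratio of 2.88. On the log2 scale of FPKM + 0.5 the difference was 1.61 (SE 0.47, 95% interval 0.52 to 2.70), with an unadjusted p of 0.00920 and an adjusted p of 0.110 over 14323 genes in limma. Fgf1 thus passed the threshold of the study, an unadjusted p under 0.05 with a change of 1.4-fold or more, and not an adjusted p of 0.05. The two-sided exact permutation test over the 70 arrangements of the libraries gave p = 0.0571, where 0.0286 is the smallest value it can give. The control libraries themselves spanned 6.26-fold, and their SD on the log2 scale (0.98) was larger than that of 97.95% of the tested genes.

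Fgf18 encodes a ligand of the FGF8 subfamily, which binds mainly the mesenchymal receptor forms. Its locus is chr11:33117430-33147400 (minus strand). The controls had 0.669, 0.256, 1.08 and 0.954 FPKM and the Nr2f2 d/d libraries 2.43, 1.93, 3.71 and 1.33 FPKM. Every Nr2f2 d/d library was above every control library, with replicate 4 of Nr2f2 d/d nearest to the controls. The means were 0.739 ± 0.364 and 2.35 ± 1.01 FPKM, a ratio of 3.18, and the log2 fold change was 1.19 (SE 0.31, 95% interval 0.49 to 1.89). In limma the unadjusted p was 0.00444, past the threshold of the study, and the adjusted p was 0.0799, while the exact permutation test gave its smallest value, p = 0.0286. Since 0.5 was added to values near 1, the log2 fold change is smaller than the ratio of the means.

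The summed level of 10 stroma markers was 1792 to 2099 FPKM in Nr2f2 f/f and 2568 to 4995 FPKM in Nr2f2 d/d. At the threshold of the study 5 of the 10 markers were higher and 1 was lower, beside 4.7% and 4.1% of all tested genes. The other 4 markers also had log2 fold changes below 0, so the sum does not stand for the whole list. Within Nr2f2 d/d this sum had the order of Fgf1 and Fgf18, lowest in replicate 4 (2568 FPKM), then replicate 2 (2838), replicate 1 (3195) and replicate 3 (4995). In Nr2f2 f/f the orders differed, since the stroma sum was lowest in replicate 1 (1792 FPKM) and both ligands in replicate 2. The part of the stroma markers in the Fgf1 and Fgf18 differences was not tested. In whole tissue, fewer cells of a type and less RNA per cell cannot be told apart.

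Fgf9 encodes a ligand that acts mainly on mesenchymal receptor forms. It lies at chr14:58070547-58112720 (plus strand). Its levels were 4.23, 6.75, 0.524 and 1.08 FPKM in the Nr2f2 f/f libraries and 1.62, 1.57, 1.96 and 1.39 FPKM in the Nr2f2 d/d libraries. Control replicates 1 and 2 lay above all Nr2f2 d/d libraries, and control replicates 3 and 4 lay below all of them. The highest control library was 12.9 times the lowest, against 1.41 times in Nr2f2 d/d. The SD of log2 values in the controls, 1.32, was larger than that of 98.96% of the tested genes, while the SD in Nr2f2 d/d, 0.16, was near the median gene (0.156). The log2 fold change was -0.36 with a 95% interval of -1.68 to 0.95 (limma, adjusted p = 0.757), and it was 0.11 without control replicate 2.

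The same 2 control libraries had the highest sums of gland markers. The sum of 6 gland genes was 665, 3323, 279 and 226 FPKM in Nr2f2 f/f and 116, 127, 61.4 and 174 FPKM in Nr2f2 d/d. Of the 6 genes, 1 was lower at the threshold of the study and none was higher, beside 4.1% and 4.7% of all tested genes. The log2 fold change was below 0 for 4 of the 6 and above 0 for 2, so the sum does not stand for the whole list. Within Nr2f2 d/d, Fgf9 ran opposite to the gland sum. It was lowest in replicate 4, with the highest gland sum of that group, and highest in replicate 3, with the lowest. The part of the gland markers in the spread of Fgf9 was not tested.

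Fgf2 encodes basic FGF, which like FGF1 leaves the cell without a classical signal peptide. It lies at chr3:37348346-37410108 (plus strand). Fgf2 was measured at 0.478, 0.491, 0.443 and 0.655 FPKM in the controls and at 0.745, 0.827, 0.931 and 0.475 FPKM in Nr2f2 d/d. As with Fgf1, replicate 4 of Nr2f2 d/d fell among the controls and the other 3 lay above them. The means were 0.517 ± 0.0944 and 0.745 ± 0.195 FPKM, and the log2 fold change of 0.28 (SE 0.15, 95% interval -0.05 to 0.62) missed the threshold (limma, unadjusted p = 0.0892, adjusted p = 0.309). Of its exon bases, 9.44% overlap exons on the opposite strand, those of Nudt6, and the library kit does not mark strand, so reads of the 2 genes cannot be told apart there.

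Fgf7 and Fgf10 encode the stromal ligands of the epithelial form of FGFR2. Fgf7 (chr2:126034658-126091185, plus strand) was measured at 0.687, 0.626, 0.855 and 1.21 FPKM in the controls and at 0.448, 0.640, 0.791 and 0.874 FPKM in Nr2f2 d/d. The groups overlapped, with a log2 fold change of -0.17 (95% interval -0.58 to 0.23; limma, adjusted p = 0.608). Fgf10 (chr13:118669791-118792115, plus strand) was measured at 0.934, 2.38, 1.57 and 1.27 FPKM in the controls and at 1.86, 1.404, 1.58 and 1.16 FPKM in Nr2f2 d/d. Each Nr2f2 d/d library of Fgf10 lay inside the range of the controls. Its log2 fold change was 0.01 (95% interval -0.49 to 0.51; limma, adjusted p = 0.985) and turned to -0.02 after rescaling to TPM.

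The 6 ligands together summed to 9.72, 11.9, 9.20 and 13.9 FPKM in Nr2f2 f/f and to 22.3, 18.8, 25.0 and 12.3 FPKM in Nr2f2 d/d. Fgf1 made up 28.0%, 11.7%, 51.5% and 62.8% of this sum in the controls and 68.1%, 66.1%, 64.1% and 57.6% in Nr2f2 d/d. Fgf9 made up 43.6% and 56.7% in control replicates 1 and 2, where it was the leading ligand, and 5.70% and 7.76% in control replicates 3 and 4, where Fgf1 led. In Nr2f2 d/d Fgf1 led in each library, and the Fgf9 share was 7.26% to 11.3%. The share of Fgf18 was 2.15% to 11.7% in the controls and 10.3% to 14.8% in Nr2f2 d/d, so the shares overlapped where the levels did not. The SD of the Fgf1 share was 23.0 percentage points in the controls and 4.55 in Nr2f2 d/d (n = 4 each), while the shares of Fgf2 (0.354 and 0.434) and Fgf7 (1.81 and 2.20) had the larger SD in Nr2f2 d/d. These differences in spread were not tested.

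**Figure D2:**
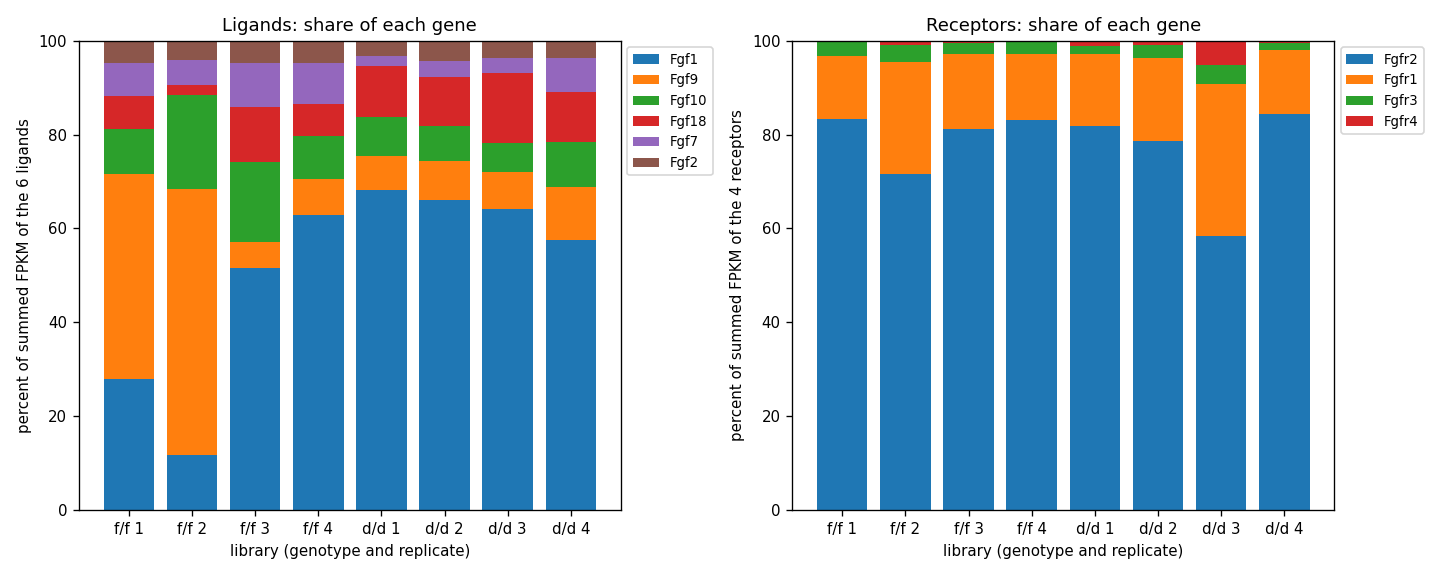
Share of each ligand in the summed FPKM of the 6 ligands (left) and of each receptor in the summed FPKM of the 4 receptors (right), in percent, with 1 stacked bar per library. Fgf9 is the largest ligand segment in control replicates 1 and 2 and Fgf1 in the other 6 libraries, and Fgfr2 is the largest receptor segment in every library, with its smallest share, 58.3%, in Nr2f2 d/d replicate 3.

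Fgfr2 encodes the receptor whose epithelial form binds FGF7 and FGF10. Its annotated span, chr7:130162451-133123350 on the minus strand, overlaps Ctbp2, which shares 3.04% of its exon bases. Fgfr2 was measured at 39.4, 25.7, 28.7 and 34.4 FPKM in Nr2f2 f/f and at 29.6, 33.3, 12.01 and 48.9 FPKM in Nr2f2 d/d. Replicate 3 of Nr2f2 d/d was the lowest and replicate 4 the highest of the 8 libraries. The means were 32.1 ± 6.08 and 31.0 ± 15.2 FPKM, and the log2 fold change was -0.19 (95% interval -1.06 to 0.68; limma, adjusted p = 0.811). It turned to 0.20 without Nr2f2 d/d replicate 3. The SD of log2 values in Nr2f2 d/d, 0.84, was larger than that of 97.68% of the tested genes, against an SD of 0.27 in the controls.

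Replicates 3 and 4 of Nr2f2 d/d were also the lowest and the highest of their group for the sums of oviduct, epithelium, gland and T and NK cell markers. Replicate 4 was the highest for the smooth muscle sum. In the controls the epithelium sum was highest in replicate 2 (902 FPKM), where Fgfr2 was lowest. The sum of 6 oviduct markers was 38.8, 41.3, 7.69 and 57.6 FPKM in Nr2f2 d/d replicates 1 to 4 and 12.5 to 31.3 FPKM in the controls, and the sum of 10 smooth muscle markers was 1128, 1907, 1493 and 2718 FPKM and 1384 to 1957 FPKM. The epithelium markers, which are from the cells that carry the FGF7 and FGF10 receptor form, summed to 1079 to 1222 FPKM in Nr2f2 d/d and to 847 to 902 FPKM in the controls. At the threshold of the study 3 of their 10 genes were higher and none was lower, beside 4.7% and 4.1% of all tested genes. The parts of these markers in the Fgfr2 values were not tested.

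Fgfr1 encodes the main mesenchymal receptor. It lies at chr8:25513654-25575718 (plus strand). Its level was 6.36, 8.63, 5.65 and 5.85 FPKM in the controls and 5.53, 7.46, 6.67 and 7.88 FPKM in Nr2f2 d/d. The groups overlapped, and the log2 fold change was 0.06 with a 95% interval of -0.29 to 0.41 (limma, adjusted p = 0.857). Fgfr3 (chr5:33721674-33737068, plus strand) was measured at 1.47, 1.31, 0.845 and 1.03 FPKM in the controls and at 0.611, 1.23, 0.853 and 0.863 FPKM in Nr2f2 d/d. Its log2 fold change was -0.26 (95% interval -0.66 to 0.14; limma, adjusted p = 0.414). Of the Fgfr3 exon bases, 13.94% overlap a gene on the opposite strand. The epithelial and mesenchymal splice forms of the receptors are not separated in gene-level FPKM.

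Fgfr4 encodes the receptor best known in liver, where it works with beta-Klotho. It lies at chr13:55152640-55168759 (plus strand). Fgfr4 was measured at 0.075, 0.335, 0.167 and 0.114 FPKM in Nr2f2 f/f and at 0.448, 0.401, 1.08 and 0.357 FPKM in Nr2f2 d/d. Every Nr2f2 d/d library was above every control, by a narrow margin between Nr2f2 d/d replicate 4 and control replicate 2. The means were 0.173 ± 0.115 and 0.572 ± 0.341 FPKM, a ratio of 3.31, and the exact permutation test gave p = 0.0286. With a mean under 0.5 FPKM over the 8 libraries Fgfr4 was not among the genes tested with limma. Without that filter its log2 fold change was 0.64 (SE 0.21, 95% interval 0.15 to 1.13), with an unadjusted p of 0.0167 and an adjusted p of 0.173. The values stand for about 16.6 to 72.4 fragments in the controls and 98.4 to 352 in Nr2f2 d/d at the exon length of GENCODE.

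The 4 receptors together summed to 47.3, 36.0, 35.4 and 41.4 FPKM in Nr2f2 f/f and to 36.2, 42.4, 20.6 and 58.0 FPKM in Nr2f2 d/d. Fgfr2 made up 71.5% to 83.3% of the sum in the controls and 81.8%, 78.6%, 58.3% and 84.3% in Nr2f2 d/d. In Nr2f2 d/d replicate 3, where Fgfr2 was lowest, Fgfr1 had a share of 32.4% and Fgfr4 one of 5.24%, against 0.159% to 0.931% for Fgfr4 in the controls. The receptor sum exceeded the ligand sum in 7 of the 8 libraries and was below it in Nr2f2 d/d replicate 3.

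The 250 bases before the start of transcription are shown for Fgf18 and Fgfr4, the genes whose Nr2f2 d/d libraries all lay above the controls, and for Fgf7 and Fgf10, the members with a nuclear receptor half-site there among the 8 examined. The starts are those of RefSeq, which for Fgf10 lies inside the GENCODE locus given above and for Fgfr4 downstream of the GENCODE start. The sequences are from RefSeq on GRCm38.p6, read 5′ to 3′ on the strand of the gene. Capitals mark AGGTCA or GGGTCA on either strand, the half-sites that receptors of the NR2F2 family bind as pairs, and CANNTG, the E-box bound by helix-loop-helix factors such as HAND2. The windows are chr11:33147401-33147650 on the minus strand for Fgf18 and, on the plus strand, chr13:55152568-55152817 for Fgfr4, chr2:126034408-126034657 for Fgf7 and chr13:118714449-118714698 for Fgf10.
Fgf18: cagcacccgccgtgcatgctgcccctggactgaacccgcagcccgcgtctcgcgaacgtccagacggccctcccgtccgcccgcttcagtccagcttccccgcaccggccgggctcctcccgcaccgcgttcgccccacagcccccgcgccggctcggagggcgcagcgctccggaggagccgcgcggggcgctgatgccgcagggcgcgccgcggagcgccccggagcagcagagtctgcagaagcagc
Fgfr4: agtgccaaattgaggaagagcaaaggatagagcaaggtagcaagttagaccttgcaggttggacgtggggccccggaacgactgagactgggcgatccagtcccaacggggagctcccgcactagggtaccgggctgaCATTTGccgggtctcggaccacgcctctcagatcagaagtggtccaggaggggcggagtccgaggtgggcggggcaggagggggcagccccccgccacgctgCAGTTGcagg
Fgf7: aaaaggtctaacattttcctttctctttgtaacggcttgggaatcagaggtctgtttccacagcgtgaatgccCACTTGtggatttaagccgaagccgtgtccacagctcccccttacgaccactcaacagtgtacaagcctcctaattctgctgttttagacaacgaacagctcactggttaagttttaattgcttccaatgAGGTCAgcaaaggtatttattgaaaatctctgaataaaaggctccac
Fgf10: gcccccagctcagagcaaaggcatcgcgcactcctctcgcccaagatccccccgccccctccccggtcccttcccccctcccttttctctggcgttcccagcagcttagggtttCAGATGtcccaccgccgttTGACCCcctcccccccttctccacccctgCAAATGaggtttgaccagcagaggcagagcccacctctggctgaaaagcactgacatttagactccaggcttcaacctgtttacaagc
The Fgf18 window holds none of the 3 motifs. The Fgfr4 window holds 2 E-boxes, at -112 to -107 and at -10 to -5 from the start, and no half-site. The Fgf7 window holds AGGTCA at -47 to -42, and the Fgf10 window holds GGGTCA on the minus strand, printed as TGACCC, at -117 to -112. Of 9 windows examined for 8 of the 10 genes (Fgfr3 has 2), 1 held AGGTCA, 1 GGGTCA and 5 CANNTG. Among all 32851 promoter windows of that length, 14.02% held AGGTCA, 11.65% held GGGTCA and 66.22% held CANNTG. Fgf1 and Fgfr1 were not examined.

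Of the 9 members tested with limma, Fgf1 and Fgf18 passed the threshold of the study, both with higher values in Nr2f2 d/d. Over all 14323 tested genes 8.8% passed it, 4.7% with higher and 4.1% with lower values. At an adjusted p under 0.05 the count of members was 0 of 9, against 2.62% of all tested genes, and the same Fgf1 and Fgf18 were the members with an unadjusted p under 0.05. The groups did not overlap for 1 of the 9 tested members, Fgf18, which was higher. Of all tested genes 15.4% did not overlap, 787 with higher and 1419 with lower values. The median log2 fold change of the 9 was 0.01, and that of all tested genes was -0.02. The 2 calls were not lost in any of the 8 fits that left out a library, in which the log2 fold change was 1.23 to 1.99 for Fgf1 and 0.97 to 1.38 for Fgf18. The Fgf1 call was lost (1.10, limma, unadjusted p = 0.0978) in a fit with a replicate block on the column-name numbers, over 6 libraries.

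**Figure D3:**
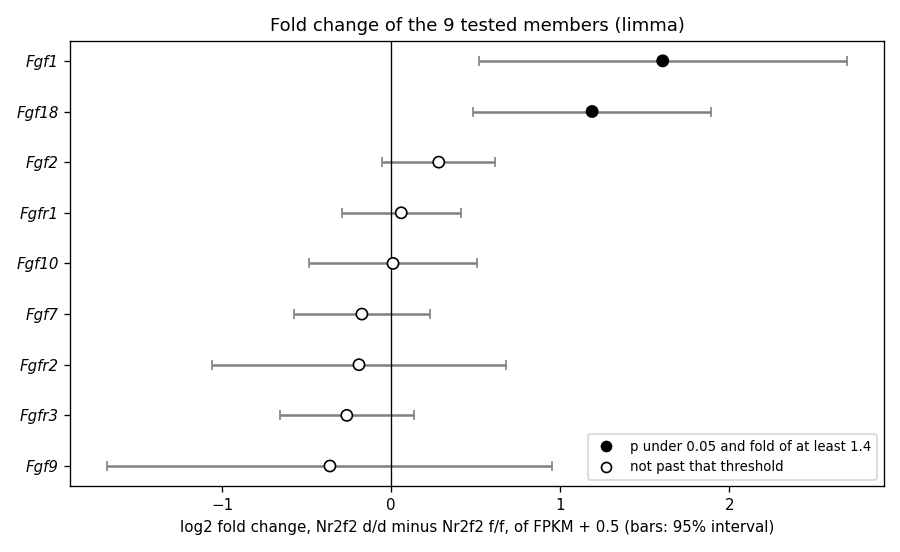
log2 fold change (Nr2f2 d/d minus Nr2f2 f/f, of FPKM + 0.5, limma) of the 9 tested members, with bars for the 95% interval and filled points for genes past the threshold of the study. The intervals of Fgf1 (0.52 to 2.70) and Fgf18 (0.49 to 1.89) lie above 0, those of the other 7 include 0, and the interval of Fgf9 (-1.68 to 0.95) is the widest.

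After the mean of each group was subtracted from the log2 values, Fgf1 and Fgf18 had a Pearson r of 0.83 with each other over the 8 libraries. Within Nr2f2 d/d the order of the libraries was the same for both, replicate 4, 2, 1 and 3 from low to high. Fgf18 was number 606 of 13212 genes by closeness to Fgf1, and Fgf1 was number 1265 by closeness to Fgf18. Each pair of values comes from the same library. The genes closest to Fgf1 were Mlst8 (r = 0.983), Hmgn5 (0.982) and Ppp2r5c (0.981), and among those closest to Fgf18 were Id1 (0.992) and Pitpnb (0.991). The lowest adjusted p of these 5 between the genotypes was that of Id1 (limma, 0.388). The r with Hand2 was 0.04 for Fgf1 and 0.27 for Fgf18, values that pool unlike orders in the 2 genotypes. In Nr2f2 f/f the libraries from low to high were replicates 2, 1, 4 and 3 for Fgf18 and exactly the reverse for Hand2, and Fgf1 was lowest in the 2 libraries with the highest Hand2. In Nr2f2 d/d replicate 4 was the lowest and replicate 3 the highest for all 3 genes. The r of Fgf1 was -0.80 with Fgfr1 and -0.70 with Fgf9, but within Nr2f2 d/d the libraries of Fgf9 had the same order as those of Fgf1.

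**Figure D4:**
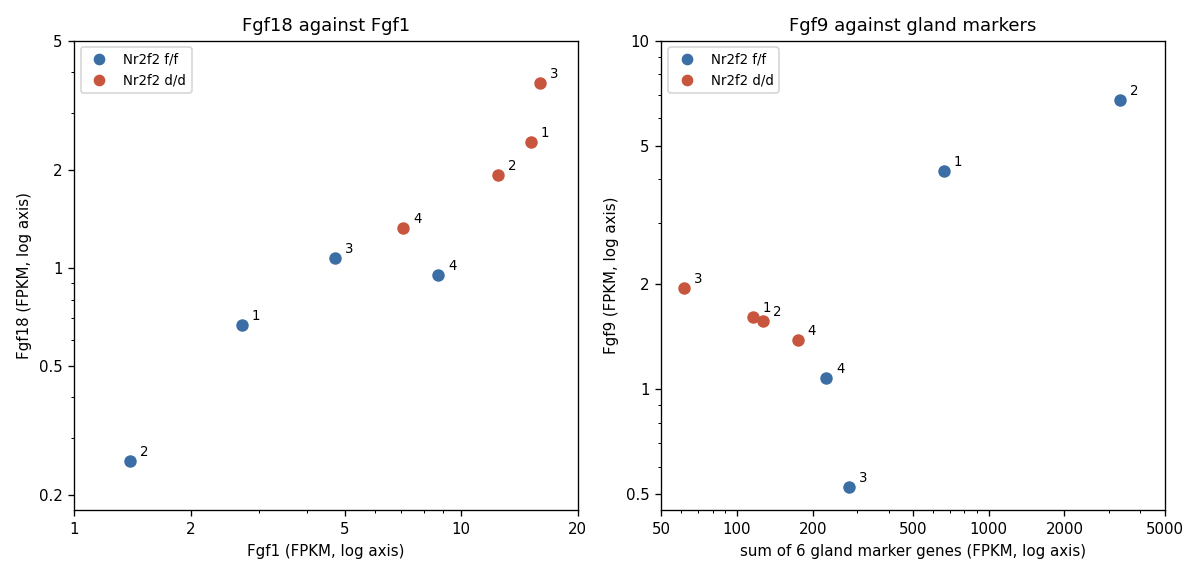
Left, Fgf18 against Fgf1, and right, Fgf9 against the sum of 6 gland marker genes, in FPKM on log axes, with 1 numbered point per library (blue, Nr2f2 f/f; red, Nr2f2 d/d). Fgf1 and Fgf18 are ordered alike in Nr2f2 d/d, and the 2 control libraries with Fgf9 at 4.23 and 6.75 FPKM have gland sums of 665 and 3323 FPKM.

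Around the 10 genes, 103 others of the pathway were listed in 6 groups, of which 81 were expressed enough to be tested. At the threshold of the study 5 of the 81 were higher and 8 lower in Nr2f2 d/d, beside 4.7% and 4.1% of all tested genes. At an adjusted p under 0.05 in limma 1 was higher, Flrt1, and 3 were lower, Gpc6, Cbl and Myc. Of all 14323 tested genes 2.62% passed it, 156 with higher and 219 with lower values. The median log2 fold change of the 81 was -0.04. Of the 16 other FGF ligands 1 was tested, Fgf11, with a log2 fold change of -0.17 (limma, adjusted p = 0.497), and Fgf4, Fgf6 and Fgf15 were listed at 0 in every library.

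**Figure D5:**
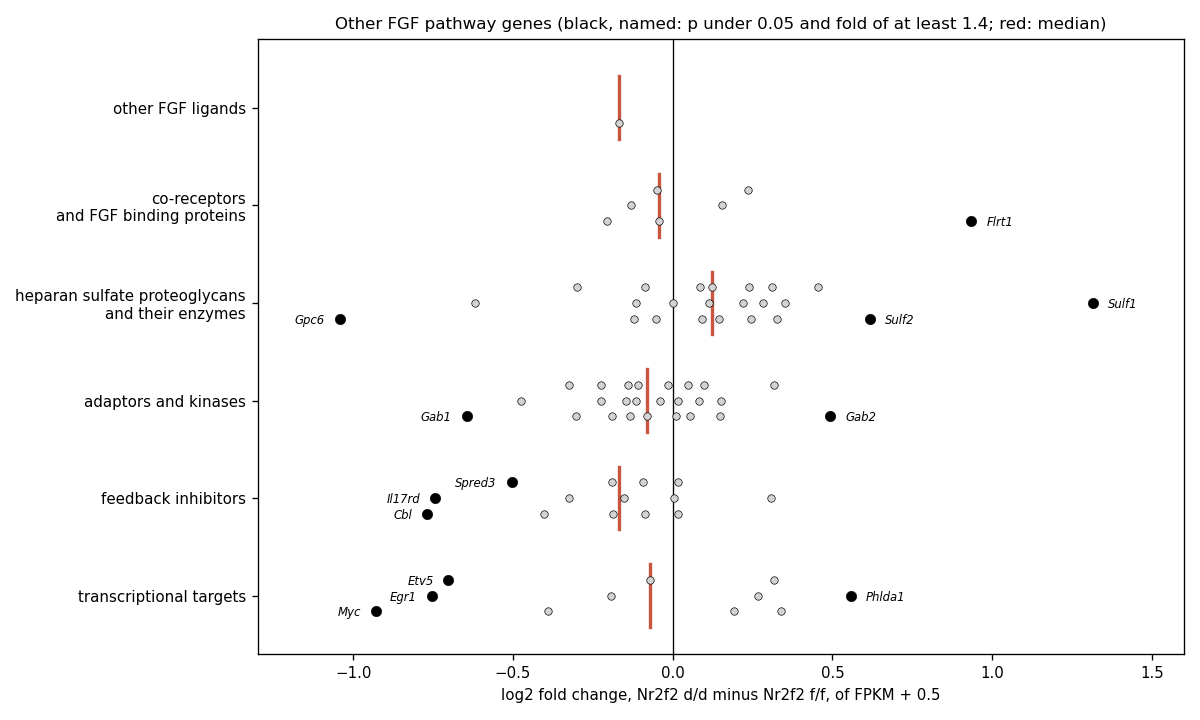
log2 fold change (Nr2f2 d/d minus Nr2f2 f/f, of FPKM + 0.5, limma) of the 81 tested pathway genes in 6 lists, 1 point per gene, with the 13 genes past the threshold of the study in black and named, and a red line at the median of each list. Feedback inhibitors past the threshold lie to the left of 0, and Sulf1 (1.31) and Gpc6 (-1.04) are the points farthest from 0.

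Among the 10 co-receptors and FGF binding proteins, 7 were tested and Flrt1 was higher. FLRT proteins are membrane proteins that bind FGF receptors. Flrt1 was measured at 0.448, 0.482, 0.306 and 0.460 FPKM in the controls and at 1.19, 1.66, 1.35 and 0.930 FPKM in Nr2f2 d/d, without overlap. Its log2 fold change was 0.94 (SE 0.15, limma, adjusted p = 0.0231). All 4 control values lay under the 0.5 FPKM of the filter, which Flrt1 passed only through its Nr2f2 d/d values. Without the filter the adjusted p in limma was 0.0275. The adjusted p in limma rose to 0.0699, 0.0512 and 0.0625 without control replicate 1, 3 or 4 and to 0.0695 and 0.0710 without Nr2f2 d/d replicate 1 or 2. The decoy receptor Fgfrl1 did not pass the test (log2 fold change -0.13, limma, adjusted p = 0.597), nor did Flrt2 (0.23, limma, adjusted p = 0.250).

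Heparan sulfate chains hold FGFs on their receptors. Of 25 genes of their core proteins and enzymes, 23 were tested, with a list median of 0.12. At the threshold of the study 2 were higher and 1 lower, beside 4.7% and 4.1% of all tested genes. Gpc6, a membrane-anchored core protein, was measured at 10.1, 8.95, 10.2 and 8.09 FPKM in the controls and at 4.19, 5.03, 3.20 and 4.85 FPKM in Nr2f2 d/d. The groups did not overlap, with a log2 fold change of -1.04 (SE 0.14, limma, adjusted p = 0.0151), and the adjusted p was 0.0547 without control replicate 1 and 0.0572 without Nr2f2 d/d replicate 1. Sulf1 and Sulf2, which remove 6-O-sulfate groups from the chains and so weaken FGF binding, were higher. Sulf1 had 10.1, 6.74, 14.9 and 10.96 FPKM in the controls and 32.02, 24.5, 43.6 and 13.9 FPKM in Nr2f2 d/d, with a log2 fold change of 1.31 (limma, adjusted p = 0.0887). Its Nr2f2 d/d libraries were in the order seen for Fgf1 and Fgf18. Sulf2 had a log2 fold change of 0.62 (limma, unadjusted p = 0.0358, adjusted p = 0.205), and its call was lost without control replicate 1 or 2 or Nr2f2 d/d replicate 2 or 3 (0.60, 0.42, 0.64 and 0.45).

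Of 25 adaptors and kinases that carry the signal inside the cell, all were tested, with a list median of -0.08. At the threshold of the study 1 was higher and 1 lower, beside 4.7% and 4.1% of all tested genes. Gab1, a docking protein, was lower (log2 fold change -0.64, limma, adjusted p = 0.139), and its call was lost over 6 libraries, without control replicate 2 and Nr2f2 d/d replicate 3 (-0.50, limma, unadjusted p = 0.0831). Its relative Gab2 was higher (0.49, limma, adjusted p = 0.188). The call of Gab2 was lost without control replicate 1, 3 or 4 or Nr2f2 d/d replicate 1 or 3 (0.47, 0.47, 0.43, 0.37 and 0.43). Frs2, the docking protein that FGF receptors phosphorylate, was measured at 10.2, 10.3, 10.1 and 9.80 FPKM in the controls and at 9.27, 7.27, 7.09 and 8.41 FPKM in Nr2f2 d/d. These groups did not overlap, but the log2 fold change of -0.33 (limma, unadjusted p = 0.00718, adjusted p = 0.0998) was under 1.4-fold. Plcg1, a phospholipase bound by the receptors, and Sos1, which loads RAS with GTP, also had every Nr2f2 d/d library below the controls, with log2 fold changes of -0.47 and -0.22 (limma, adjusted p = 0.0726 and 0.113). Groups without overlap numbered 1 higher and 4 lower among the 25 genes, beside 787 higher and 1419 lower among all 14323 tested.

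Among 15 feedback inhibitors of the pathway, 14 were tested, with a list median of -0.17. At the threshold of the study none was higher and 3 were lower, beside 4.7% and 4.1% of all tested genes. Cbl, a ubiquitin ligase that sends receptors to degradation, was measured at 2.56, 2.66, 2.22 and 2.78 FPKM in the controls and at 1.70, 0.822, 1.47 and 1.28 FPKM in Nr2f2 d/d. Its log2 fold change was -0.77 (SE 0.16, limma, adjusted p = 0.0496), and the adjusted p was 0.0712 to 0.126 when any 1 library was left out. Over all 8 libraries it was also above 0.05 with 0.1 added before log2 (0.0553), without the filter (0.0746) and with a filter at 1 FPKM (0.0525). So it was after median-ratio scaling (0.0513), in TPM (0.0520) and with robust estimation (0.0523). It stayed under 0.05 with 1 added (0.0462), after quantile normalization (0.0428) and without the variance trend (0.0446). Il17rd, also called Sef, had 4.59, 6.40, 3.91 and 3.79 FPKM in the controls and 2.85, 2.37, 1.97 and 3.05 FPKM in Nr2f2 d/d, with a log2 fold change of -0.74 (limma, adjusted p = 0.0701). Spred3, which inhibits RAF activation, had a log2 fold change of -0.50 (limma, adjusted p = 0.0851), and fell under 1.4-fold without control replicate 2 (-0.40) or Nr2f2 d/d replicate 2 (-0.43), with 1 added before log2 (-0.44) and after median-ratio scaling (-0.48). For each of the 3 genes the groups did not overlap. The tested genes of this list without overlap numbered 0 higher and 4 lower, beside 787 higher and 1419 lower of all 14323.

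Of 12 genes that growth factor signalling is known to induce, 11 were tested, with a list median of -0.07. At the threshold of the study 1 was higher and 3 were lower, beside 4.7% and 4.1% of all tested genes. Myc, a growth-promoting transcription factor, was measured at 51.7, 66.8, 49.6 and 55.1 FPKM in the controls and at 26.3, 32.6, 28.7 and 28.2 FPKM in Nr2f2 d/d. Its log2 fold change was -0.93 (SE 0.11, limma, adjusted p = 0.00887), and its adjusted p was 0.0109 to 0.0410 in the fits that left out a library. Etv5, an ETS factor induced by FGF signalling, had a log2 fold change of -0.70 (limma, adjusted p = 0.0869), and the immediate early gene Egr1 one of -0.75 (limma, adjusted p = 0.101). For both, 3 of 4 Nr2f2 d/d libraries lay below the controls. Phlda1 was higher, with a log2 fold change of 0.56 (limma, unadjusted p = 0.0279, adjusted p = 0.187), and its call was lost without control replicate 2 or 4 or Nr2f2 d/d replicate 1 or 3 (0.52, 0.51, 0.52 and 0.36).

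Genes past the threshold of the study also stood in some marker lists of other cells. Of all tested genes 4.7% passed it with higher and 4.1% with lower values. Of 8 endothelium markers 7 were lower at the threshold of the study, and their sum was 229 to 320 FPKM in Nr2f2 f/f and 138 to 178 FPKM in Nr2f2 d/d. Of 8 T and NK cell markers 3 were higher (sums of 39.9 to 64.2 and 47.4 to 252 FPKM), as were 3 of 6 mesothelium markers (124 to 138 and 138 to 177 FPKM). None of the smooth muscle, macrophage, adipocyte or oviduct markers tested (10 of 10, 7 of 8, 1 of 5 and 3 of 6) passed that threshold. Macrophage sums were 135 to 268 and 185 to 280 FPKM, and adipocyte sums 1.62 to 8.64 and 2.30 to 5.73 FPKM. Of 8 ovary markers 4 were tested and 1 was higher (sums of 19.0 to 22.6 and 20.8 to 32.9 FPKM), and Fshr, a granulosa cell receptor, was listed at 0. At an adjusted p under 0.05 in limma 4 endothelium markers were lower and 1 mesothelium marker was higher. No T and NK cell or ovary marker passed it. The part of these cells in the FGF values was not tested.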

How the data were processed

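RNA of whole uterus was made into 4 Nr2f2 f/f and 4 Nr2f2 d/d libraries with a TruSeq kit that does not mark strand. The authors trimmed reads (cutadapt 1.12), aligned them to mm10 (STAR 2.5.2b) and counted fragments per gene (featureCounts 1.5.0-p1), and the submitters' processing notes also name Cufflinks 2.0.2. They deposited FPKM for 24963 genes, of which 3893 were at 0 in every library, and 0 columns of values were left without a sample. The annotation behind the FPKM is not given in the sources used here. The study tested counts, which were not used here, so its threshold was applied to another test.

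log2(FPKM + 0.5) was taken for the 14323 genes whose mean reached 0.5 FPKM and compared with limma 3.58.1 (lmFit, eBayes with a trend, two-sided, R 4.3.3), with Benjamini-Hochberg adjustment over all of them. The script was tested on simulated data. Single genes were also compared by a two-sided exact permutation test (Python 3.11.15). The threshold of the study was an unadjusted p under 0.05 with a change of 1.4-fold or more. Library totals are those at which 95.1% to 97.4% of low FPKM of 1992 genes with a single exon were whole fragments, within 0.1, against medians of 10.7% to 13.1% at other totals. Precision values of 3 fragments cover counting error only. FPKM are relative to a library's total, so abundant transcripts shift the rest.

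Coordinates are those of GENCODE vM21 (mm10). The 10 genes, the pathway lists and the marker lists were written from general knowledge with earlier results of these data known. Named are the 10 genes, Nr2f2, Hand2, the 3 genes with the smallest p of each pathway list and those past the threshold (up to 6), the 3 genes most like Fgf1 and Fgf18 among those whose mean reached 1 FPKM (of which 1 is not reported here), and markers at 0. Replicate numbers are those of the titles. Alternatives were other values added, filters, scalings, variance models, replicate blocks and libraries left out.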

Additional observations from a re-analysis of the deposited data

Results flagged for a closer look

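In 4 of 62 groups of 4 libraries (31 genes in each genotype), 1 library stood apart from the other 3 by Dixon's test at the 95% level, which chance alone does in about 1 in 20 groups. Fgfr4 was at 1.08 FPKM in Nr2f2 d/d replicate 3 and at 0.357 to 0.448 FPKM in the other 3. Nr2f2 was at 6.90 FPKM in the same library and at 9.42 to 9.74 FPKM in the others. Gab1 was at 9.41 FPKM in Nr2f2 d/d replicate 4, against 6.42 to 6.74 FPKM. Egr1 was at 13.0 FPKM in Nr2f2 d/d replicate 2, against 7.41 to 8.09 FPKM.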

How the results depend on the processing

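The count of members at an adjusted p under 0.05 was 0 in limma under each of the 20 alternatives, and the count past the threshold of the study was 2 in each fit that left out a library (range 2 to 2), 3 without the filter on low values, where Fgfr4 was tested, and 1 with a replicate block on the numbers in the column names, which covers 6 libraries. There Fgf1 had a log2 fold change of 1.10 (unadjusted p = 0.0978), and it was 1.10 (unadjusted p = 0.0413) over the same 6 libraries without the block, an alternative chosen after seeing the data because those left out agreed least with their groups. Same-numbered samples did not deviate together in every pair (r = -0.20, -0.17, 0.05 and -0.04 by title, and -0.20, 0.15 and -0.04 by column name), so the numbers were not taken as pairs. With that block Nr2f2 was -1.32 (adjusted p = 0.0623), Hand2 -0.73 (0.103), Fgf9 0.0371 and Fgfr2 0.10. With a block on the title numbers Nr2f2 was -1.39 (adjusted p = 0.0714) and Hand2 -0.71 (0.134), and of all genes 1 was called at an adjusted p under 0.05, against 375 without a block and 0 with the column numbers. Without the filter Hand2 was -0.71 (adjusted p = 0.0514). Among uncalled members, Fgf10 turned to -0.0245 in TPM and -0.0148 after quantile normalization, and over the 6 libraries without the block Fgf9 was 0.0371 and Fgfr2 0.10. Among pathway genes, the column-number block ended the calls of Gab1 (-0.50, unadjusted p = 0.116), Egr1 (-0.72, 0.0916), Spred3 (-0.43), Sulf2 (0.25) and Phlda1 (0.32), and over those 6 libraries without the block the calls of all but Egr1 among these 5 were lost. Gab2 lost its call with 1 added before log2 (0.45) and in TPM (0.48). The causes were not tested. Leaving out 1 library gave 11 to 14 pathway genes past the threshold (13 in all 8 libraries), log2 fold changes of -1.44 to -1.28 for Nr2f2, -0.79 to -0.59 for Hand2 (adjusted p = 0.0367 to 0.108), -0.83 to 0.11 for Fgf9, -0.14 to 0.19 for Fgf10, -0.0048 to 0.19 for Fgfr1 and -0.46 to 0.20 for Fgfr2, and 42 to 347 genes at an adjusted p under 0.05 over the whole table. With the title and column-number blocks the adjusted p was 0.134 and 0.133 for Flrt1, 0.130 and 0.0943 for Gpc6, 0.160 and 0.114 for Cbl, and 0.0556 and 0.0917 for Myc. Of the 375 genes 156 were higher and 219 lower, a split that was 134 to 278 in TPM and 191 to 185 after median-ratio scaling. Genes near the 0.5 FPKM added, such as Fgf2, Fgfr4 and Fgf7, have log2 fold changes that understate their ratios.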
